A study of Bubalus bubalis with 8 samples.

Results

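The DNAJ family, also called HSP40 or J-proteins, was examined in buffalo mammary epithelial cells (MECs) during recovery from heat stress. Its members were taken as the genes whose name on the array starts with DNAJ and that had a probe well above background on at least 1 array. The array carried 95 probes for 43 DNAJ genes, among 43653 probes and 24839 gene names in all. The 9 DNAJ probes in 1 block of the array were left out, since spots there were dark on the control array. Of the 43 genes, 29 met the rule, namely 4 of class A, 9 of class B and 16 of class C. For 3 genes (DNAJC4, DNAJC9 and DNAJC13) every probe lay in the dark region, and 11 genes had no usable probe above background. One of these 11, DNAJB3, was marked as above background only by the 30 min scanner intensities and was not counted.

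J-proteins bring unfolded or misfolded clients to HSP70 and stimulate its ATPase through the conserved J domain. HSP70 then folds, holds or hands on the client, while nucleotide exchange factors reset it. The 3 classes differ in their other domains: class A resembles bacterial DnaJ, class B lacks its zinc finger region, and class C shares little beyond the J domain. Several members sit in the endoplasmic reticulum (ER), in mitochondria or at the ribosome, and a few cytosolic ones are classical heat shock genes.

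All DNAJ probes were 60 bases long and were designed on the cow genome. Selected probes are given 5′ to 3′ in lower case, with positions on the cow build Btau_3.1 from the array file. For DNAJB1, DNAJA4 and DNAJB2 the counts and medians below use a brighter probe that is not printed. The DNAJB1 probe stands first because it read highest at 8 h, and it matched chr7:9504147-9504206 on the minus strand.
DNAJB1 A_73_P262981: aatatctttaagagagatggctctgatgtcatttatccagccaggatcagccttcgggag
The DNAJC21 probe had the largest difference of the family at 8 h and matched chr20:41597988-41598047 on the minus strand.
DNAJC21 A_73_P104291: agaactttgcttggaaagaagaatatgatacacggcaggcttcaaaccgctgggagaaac
The DNAJC12 probe was above background on only 2 arrays, and its match at chr28:23453486-23460698 on the minus strand is longer than the probe, so it spans a gap in the genome match.
DNAJC12 A_73_P251871: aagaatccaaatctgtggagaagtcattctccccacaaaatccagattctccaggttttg
For DNAJA4, 2 probes overlap by 47 bases, shown in capitals, at chr21:30721162-30721221 and chr21:30721175-30721234 on the plus strand, and yet read differently in CTR.
DNAJA4 A_73_P313606: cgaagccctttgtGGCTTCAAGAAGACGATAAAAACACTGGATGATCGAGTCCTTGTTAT
DNAJA4 A_73_P113431: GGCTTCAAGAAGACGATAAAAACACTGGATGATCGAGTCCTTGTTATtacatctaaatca
For DNAJB2, the probe at chr2:111630277-111630336 on the plus strand is shown because it was not above background on any array, while 2 other probes of the gene were.
DNAJB2 A_73_P465393: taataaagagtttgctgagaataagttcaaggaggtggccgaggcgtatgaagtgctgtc

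The cells were primary MECs of a female buffalo, grown from adult mammary tissue and used after passage 10 on collagen treated plates. Control cells (CTR) stayed unstressed at 37 °C throughout. Heat stressed cells were held at 42 °C for 1 h, recovered at 37 °C under 5% CO2 and were trypsinized after 30 min or after 2, 4, 8, 12, 16 or 24 h. Whether wells were pooled for an array is not given in the sources used here. Each condition had 1 array, so nothing estimates the spread between cultures and p-values are not given, and this number bounds how precise any value can be. Buffalo RNA was hybridised to cow probes, and a base difference between both species can dim a probe, which makes levels of different probes not comparable. The level of a probe is its log2 intensity with the 75th percentile of the bright probes on that array set to 0, and a change is the level at a time point minus that in CTR. The error of a change, taken from probes spotted more than once, ranged from 0.28 at 8 h to 0.54 at 16 h (log2), and it covers spot error only.

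The arrays lay on 2 slides, with CTR, 8 h, 12 h and 24 h on slide 1 and 30 min, 2 h, 4 h and 16 h on slide 2. For the slide 2 arrays, slide and heat stress cannot be told apart. Of 10 epithelial genes, 9 or 10 were detected on each array, with KRT18 at background on all but the 2 h and 16 h arrays. Their summed level was 5.91 in CTR and 5.64 to 5.82 on the rest of slide 1, against 4.83 (30 min) to 5.74 (16 h) on slide 2. On slide 2 KRT8 was lower than in CTR, by -3.52 at 30 min to -2.32 at 16 h (log2), and KRT15 was higher, by 2.71 to 3.09. Slide 2 nevertheless carried genes of other cells and states. All 5 milk protein genes on the array were detected on the 4 slide 2 arrays, against 1 of 5 on each slide 1 array, and their summed level was between 1.26 and 6.57 on slide 2 and between -1.48 and -1.01 on slide 1. The summed level of 6 leukocyte genes was 2.62 at 30 min and 2.07 at 2 h, against -1.27 to 0.01 elsewhere. Of 4 endothelial genes, VWF was detected on the slide 2 arrays, while CDH5, KDR and PECAM1 were at background on all 8. The summed level of 8 fibroblast genes ranged from -3.38 at 30 min to 0.37 at 16 h. The part of these differences in the DNAJ values was not tested. In such bulk samples, fewer cells of a type and less RNA per cell cannot be told apart. Values on slide 1 are therefore given first.

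Most DNAJ genes stayed close to CTR, and among the genes tested the family median was highest at 8 h. Its excess over the median of all genes there was 0.286 (log2), beside a spot error of 0.282 for 1 probe. With dim probes kept as read, this excess was gone at 8 h and largest at 4 h, so the 8 h peak of the family depends on the filter. Among 24 members tested at 8 h, 2 were at least 3-fold higher than CTR (DNAJB1 and DNAJC21) and 0 lower, where 0.577% of all 8139 genes were higher and 0.0737% lower. At 12 h and at 24 h no member differed by 3-fold among 24 and 23 tested, against 0.289% higher and 0.134% lower of all genes at 12 h and 0.117% and 0.378% at 24 h. On slide 2 the members stood out less from the many genes that differed. At 30 min 1 of 22 members (DNAJB1) was 3-fold higher and 0 lower (8.18% and 2.89% of all genes), at 2 h 0 of 28 were higher and 2 lower (5.92% and 6.05%), at 4 h 1 of 29 was higher and 1 lower (2.46% and 5.4%), and at 16 h 0 of 24 were higher and 2 lower (4.97% and 4.92%). Over all 7 time points, 3 of the 29 members were 3-fold higher at least once and 2 lower, against 9.14% and 9.22% of 11655 genes. At 2-fold these were 6 and 4 members, against 19.8% and 20.9%.

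At a 2-fold cutoff, 4 of 24 members were higher and 1 lower at 8 h (3.28% and 1.92% of all genes), and 2 were higher and 0 lower at 12 h (2.79% and 1.8%). No member passed it at 24 h (1.59% and 1.96%). On slide 2 the counts were 1 higher and 1 lower of 22 at 30 min (14.3% and 8.75%), 1 and 3 of 28 at 2 h (10.7% and 12.9%), 3 and 2 of 29 at 4 h (6.56% and 11.6%), and 1 and 3 of 24 at 16 h (12% and 13.9%). In all, 10 members passed 2-fold at least once, and the other 19 stayed within 0.98 (log2) of CTR. A probe not well above background on 1 of both arrays was set to the higher of its own value and the detection limit of that array, and such changes are bounds. A gene with such a probe could be called in 1 direction only, among the members as among all genes. DNAJA4 and DNAJB2 at 8 h are of this kind.

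**Figure D1:**
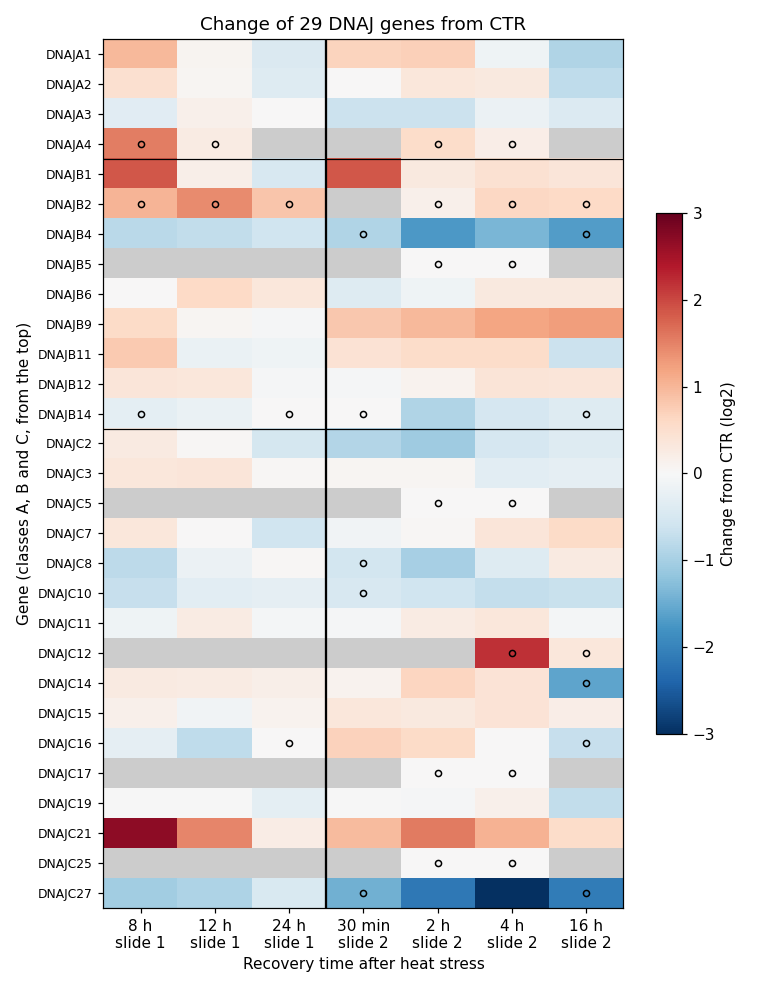
Change from CTR (log2, colour scale from -3 to 3) of the 29 DNAJ genes (rows, classes A, B and C from the top) at each recovery time (columns, slide 1 left of the thick line). Open circles mark bounds and grey cells mark probes not above background on both arrays; DNAJB1 and DNAJC21 are darkest red at 8 h, and DNAJC27 and DNAJB4 are blue at every time point.

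The median change of the members was 0.27 at 8 h, while that of all genes tested there was -0.01. Class A had a median of 0.72 over 4 genes, class B of 0.47 over 8 and class C of 0.07 over 12. DNAJA4 of class A and DNAJB2 of class B entered only because they were detected at 8 h. Their bounds of 1.53 and 1.01 could not have been negative, which raises these medians. The class A genes detected in CTR changed by 0.96 (DNAJA1), 0.48 (DNAJA2) and -0.34 (DNAJA3). At 24 h the family median was -0.04 and at 16 h -0.32, with all genes at 0 and -0.06. At 30 min, 2 h, 4 h and 12 h the family median lay between -0.002 and 0.14, with all genes at 0. Counting probes rather than genes, 25 of the 37 DNAJ probes that were above background both in CTR and at 8 h were higher at 8 h, and 14 of 33 were higher at 24 h. Genes with several probes count more than once here, DNAJA1 with 5. The share over all probes is not given, so these counts are not read as a result about the family.

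**Figure D2:**
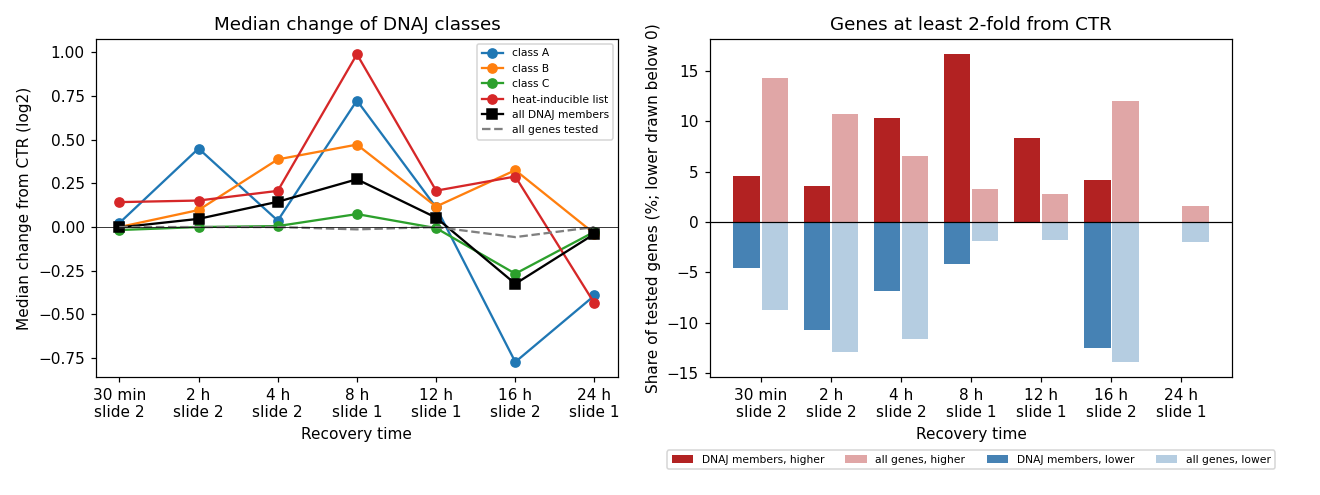
Left, median change from CTR (log2) of the DNAJ classes, the 7 heat-inducible DNAJ genes, all members and all genes tested, by recovery time; right, share (%) of members and of all genes at least 2-fold higher (above 0) or lower (drawn below 0) than CTR. Classes A and B and the heat-inducible list peak at 8 h, where DNAJA4 and DNAJB2 enter as bounds. The share of members at least 2-fold higher exceeds that of all genes at 4 h, 8 h and 12 h.

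DNAJB1 is the main heat-induced cytosolic J-protein and works with HSP70 in refolding and disaggregation. Its level was 0.27 in CTR, 2.13 at 8 h, 0.45 at 12 h and -0.22 at 24 h on slide 1. On slide 2 the 30 min array read 2.13, and the other 3 arrays read 0.57 (2 h), 0.73 (4 h) and 0.63 (16 h). The 8 h and 30 min arrays thus stood apart from the rest, both 3.63-fold above CTR. The DNAJB1 probe printed above read -2.87 in CTR and -1.28 at 8 h, a change of 1.59, and its change at 30 min was 0.87. The 2 probes thus ordered 8 h above CTR alike, while the printed probe did not reach 3-fold at 30 min. At 16 h the printed probe was not above background, with a bound of -1.25 where the other probe gave 0.36. Probes around it were also dimmer on that array (median deviation -0.81), and the part of this in the value was not tested.

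DNAJA1, the abundant class A partner of cytosolic HSP70, was measured by 5 probes. The brightest read -0.73 in CTR, 0.24 at 8 h, -0.65 at 12 h and -1.17 at 24 h. On slide 2 it read -0.05 (30 min), -0.01 (2 h), -0.86 (4 h) and -1.64 (16 h). Its largest difference was 1.95-fold higher at 8 h. All 5 probes were higher at 8 h than in CTR, with changes of 0.21 to 0.96, and all 5 were lower at 24 h, with changes of -1.06 to -0.44. At 4 h all 5 were lower (-1.80 to -0.13), and at 30 min 3 of 5 were higher. At 16 h probe A_73_P204487 alone was below background, while the other 4 were detected.

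DNAJA4, a further heat-inducible class A member, was not above background in CTR. Its brightest probe was detected at 2 h (-3.39), 4 h (-3.75), 8 h (-2.42) and 12 h (-3.72) and was below background at 30 min, 16 h and 24 h. The 8 h level was at least 2.89-fold above CTR, and the other bounds were 1.48-fold or less. The overlapping probe A_73_P313606 was detected in CTR (-3.94), at 4 h (-5.42) and at 8 h (-3.64), with a change of 0.30 at 8 h. Its neighbours were brighter in CTR (median deviation 0.72), and its twin A_73_P113431 was detected only at 2 h. The 2 brighter probes thus share the 8 h peak but not detection in CTR. The probes of DNAJA2, a constitutive class A member, differed in sign. Its brightest probe stayed between -0.77 and 0.48 of CTR, with 0.34 at 2 h and 0.30 at 4 h, where A_73_P065621 gave -1.28 and -1.08 and A_73_P102616 gave -0.71 and -0.78. At 16 h A_73_P102616 was below background, with a bound of -1.77, and the brightest probe gave its lowest change of -0.77. Neighbours on the 16 h array were dimmer around both (median deviation -0.99 and -0.95), and the part of this in the values was not tested. The mitochondrial DNAJA3 lay between -0.65 and 0.15.

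**Figure D3:**
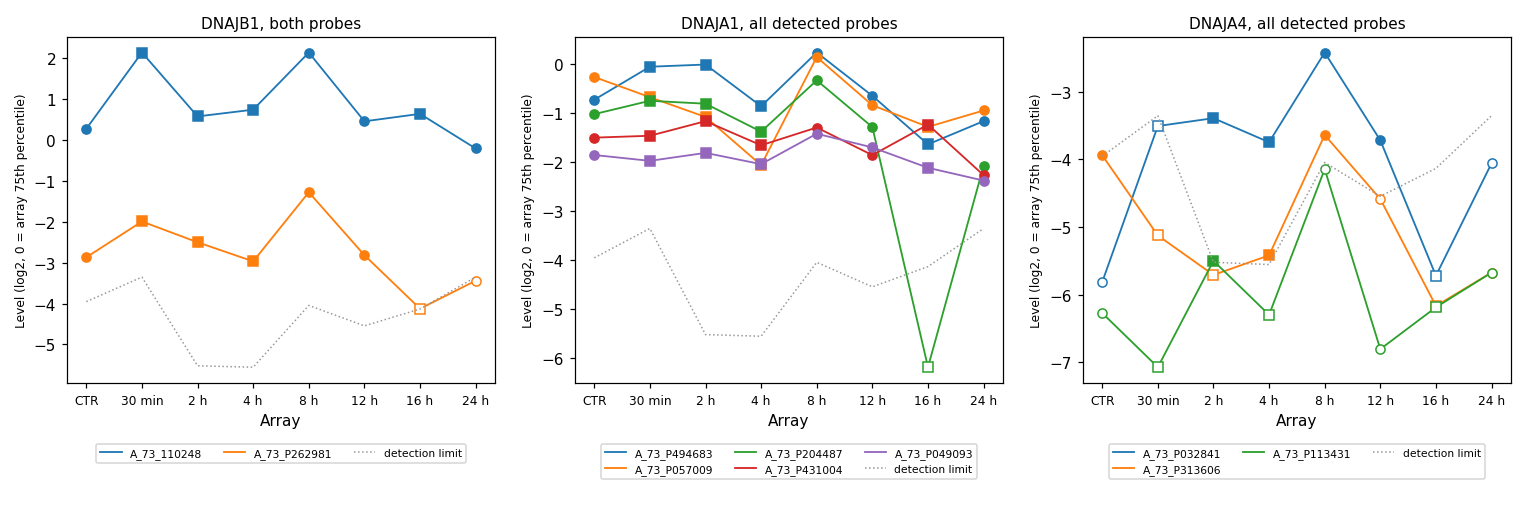
Level (log2, 0 is the 75th percentile of the array) of each detected probe of DNAJB1, DNAJA1 and DNAJA4 on the 8 arrays. Circles are slide 1, squares slide 2, open symbols are not above background and the dotted line is the detection limit; both DNAJB1 probes and the 2 brighter DNAJA4 probes reach their highest level, alone or with 30 min, at 8 h.

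DNAJB2, a J-protein that passes clients to the proteasome, had 3 probes that disagreed. Outside the dark region the brightest was below background in CTR (-4.42) and at 30 min, and read -2.94 at 8 h, -2.54 at 12 h and -3.12 at 24 h on slide 1. Relative to CTR it was higher by at least 2.02-fold (8 h) and 2.66-fold (12 h). On slide 2 it read -3.80 at 2 h, -3.32 at 4 h and -3.35 at 16 h. This probe lies outside the dark region, and its neighbours were dimmer in CTR (median deviation -0.43). The probe inside the region, A_73_108655, read -5.06 in CTR and between -0.49 and 0.68 on the other 7 arrays, where its neighbours deviated by -3.06 in CTR. The remaining probe, printed above, was at background on all 8 arrays. A higher DNAJB2 level after heat stress was thus read only from probes whose neighbours were dimmer in CTR, and the part of this in the value was not tested.

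**Figure D4:**
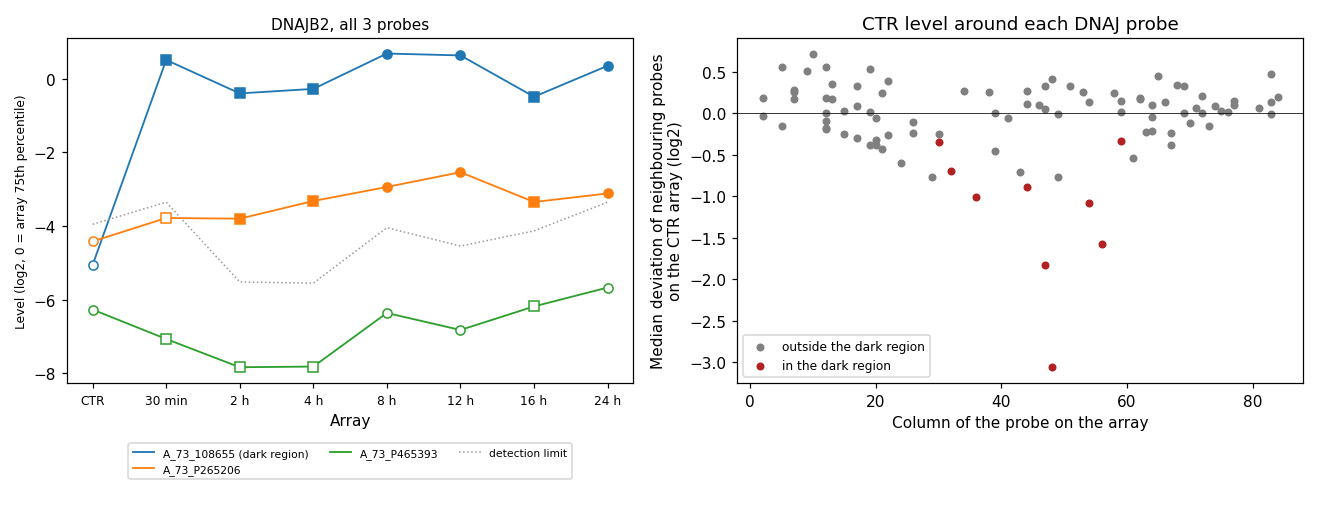
Left, level (log2) of the 3 DNAJB2 probes on the 8 arrays, with open symbols not above background. Right, median deviation (log2) on the CTR array of the probes within 10 spots of each DNAJ probe, against its column; probes in the dark region (red) reach -3.06.

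DNAJB4, a cytosolic class B protein that heat shock also induces in other cells, was lower than CTR at every time point. It read -2.46 in CTR, -3.28 at 8 h, -3.19 at 12 h and -3.06 at 24 h on slide 1. On slide 2 it read -4.18 at 2 h and -3.84 at 4 h, and was below background at 30 min (-3.63) and 16 h (-4.15). All 7 arrays lay below CTR, and the slide 2 arrays lay lowest. Relative to CTR it was 3.30-fold lower at 2 h, at least 3.19-fold lower at 16 h and 1.51-fold to 1.76-fold lower on slide 1. Its second probe was not detected on any array. DNAJB6, which keeps aggregation-prone proteins soluble, stayed between -0.39 and 0.60 of CTR. DNAJB5 was detected only at 2 h and 4 h, where the detection limits were lowest. Of the 7 heat-inducible DNAJ genes as a list, 6 were tested at 8 h, 3 were at least 2-fold higher (DNAJA4, DNAJB1 and DNAJB2) and 0 lower, against 3.28% and 1.92% of all genes. DNAJA4 and DNAJB2 were below background in CTR, so they were tested at 8 h only because they were detected there. Neither could have counted as lower, and the limit given above for the DNAJB2 probes applies here too. The median change of the 6 tested genes was 0.99, beside -0.01 for all genes, and it is raised by these bounds. The genes detected in CTR changed by 1.86 (DNAJB1), 0.96 (DNAJA1), 0.02 (DNAJB6) and -0.82 (DNAJB4), and DNAJB5 was not tested at 8 h. At 24 h the median of the list was -0.44 and 0 of 5 passed 2-fold in either direction, against 1.59% and 1.96% of all genes.

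DNAJC21, a J-protein of 60S ribosome subunit maturation, showed the largest difference of the family on slide 1. It read -3.12 in CTR, -0.44 at 8 h, -1.65 at 12 h and -2.88 at 24 h. On slide 2 it read -2.16 (30 min), -1.55 (2 h), -2.08 (4 h) and -2.57 (16 h). The 8 h array was highest, 6.41-fold above CTR, with 12 h (2.77-fold) and 2 h (2.96-fold) next. The probe sits near the dark region and its neighbours were dimmer in CTR (median deviation -0.71), and the part of this in the change was not tested. Set against 24 h on the same slide, where its neighbours deviated by 0.37 as at 8 h (0.38), DNAJC21 was 5.45-fold higher at 8 h and 2.35-fold higher at 12 h. Its second probe, A_73_P146106, was above background at 8 h (-3.62) and 12 h (-3.55), and also at 2 h (-4.17) and 4 h (-4.58), and not on the other 4 arrays, CTR (-4.29) among them. Its change at 8 h was a bound of 0.34 (log2), beside 2.68 for the printed probe.

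DNAJC2, which binds the ribosome near the nascent chain, read -1.48 in CTR, -1.21 at 8 h, -1.46 at 12 h and -2.02 at 24 h. Levels on slide 2 were -2.36 (30 min), -2.54 (2 h), -1.99 (4 h) and -1.87 (16 h), below CTR on all 4 arrays, with 2.08-fold at 2 h as the largest difference. DNAJC8, a spliceosome protein, was 1.98-fold lower at 2 h and 1.74-fold lower at 8 h, and its change elsewhere lay between -0.56 and 0.26. Neighbours of the DNAJC8 probe deviated by 0.28 in CTR, -0.72 at 2 h and -0.03 at 8 h. The part of this in its changes was not tested. DNAJC17, of the spliceosome too, was detected only at 2 h and 4 h. In a list of DNAJC2, DNAJC8, DNAJC9 and DNAJC17, which leaves out DNAJC21, 1 of 3 genes tested at 2 h was 2-fold lower and 0 higher, against 12.9% and 10.7% of all genes.

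DNAJC27, which joins a J domain to a Rab-like GTPase, was the member furthest below CTR. It read -1.90 in CTR, -2.95 at 8 h, -2.83 at 12 h and -2.36 at 24 h on slide 1. On slide 2 it read -4.04 at 2 h and -4.91 at 4 h and was below background at 30 min (-4.54) and 16 h (-4.00). CTR was the highest of the 8 arrays and the slide 2 arrays were the lowest. DNAJC27 was 8.01-fold lower than CTR at 4 h and 4.40-fold lower at 2 h. For the arrays where DNAJC27 was dim it was lower by at least 4.28-fold (16 h) and 2.73-fold (30 min). On slide 1 it was 2.07-fold lower at 8 h, 1.90-fold at 12 h and 1.37-fold at 24 h, and 8 h and 12 h differed by less than the spot error. Only 1 probe measures this gene. Within slide 2, the 2 h and 4 h levels did not exceed the dim 16 h reading, so no fold against 16 h is given.

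DNAJC12, a co-chaperone of the aromatic amino acid hydroxylases, was detected on 2 arrays only. Its probe read -1.76 at 4 h and -3.60 at 16 h and sat at background on the other 6 arrays, between -7.84 and -5.67. The bound of its 4 h level was at least 4.58-fold above CTR, and that of 16 h was 1.27-fold. A second probe, in the dark region, was above background on the same 2 arrays, at 0.62 and -0.56. These were the arrays with the highest summed milk protein levels, 5.30 at 4 h and 6.57 at 16 h. The difference between 4 h and 16 h was 1.84 (log2) for DNAJC12, with 4 h higher, and the part of the milk protein levels in it was not tested.

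**Figure D5:**
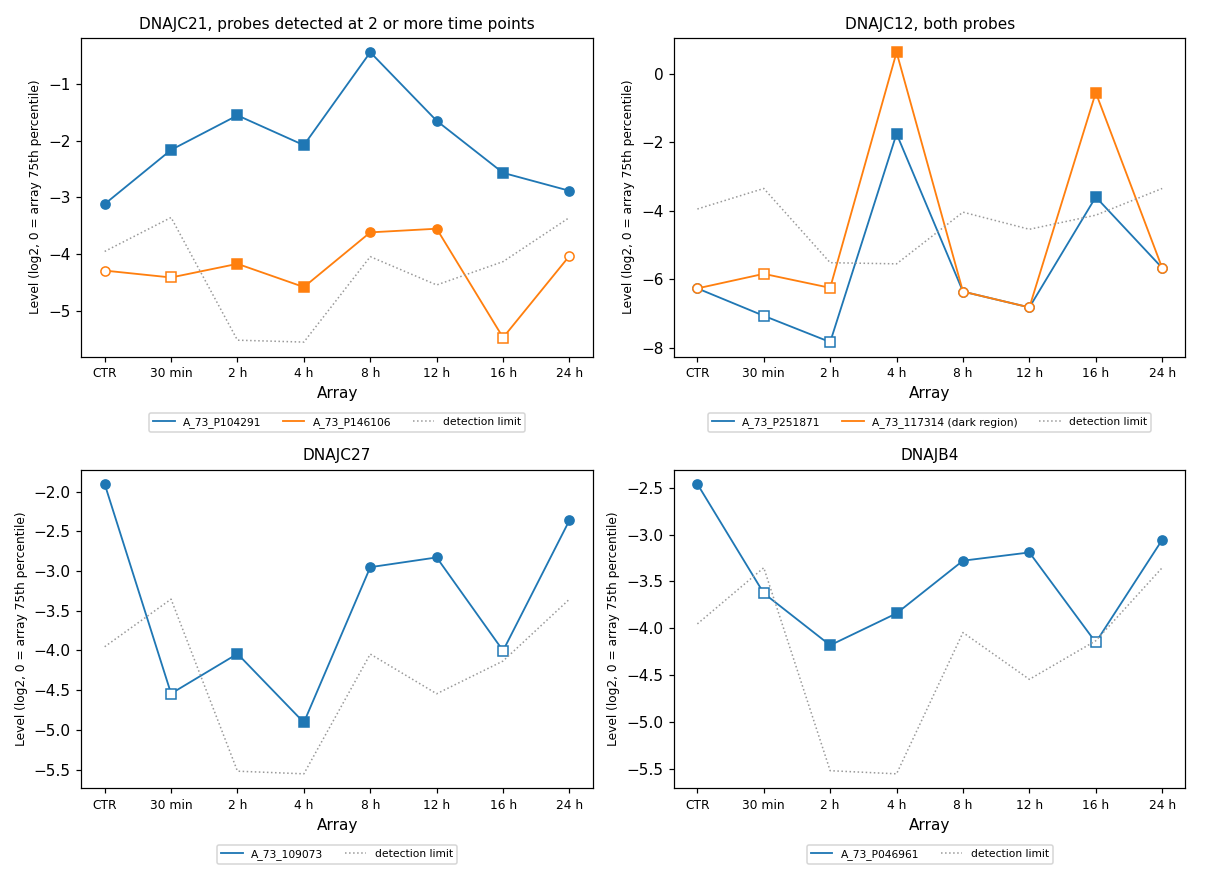
Level (log2, 0 is the 75th percentile of the array) of the DNAJC21, DNAJC12, DNAJC27 and DNAJB4 probes on the 8 arrays, with circles for slide 1, squares for slide 2, open symbols for values not above background and a dotted detection limit. DNAJC21 peaks at 8 h, both DNAJC12 probes appear only at 4 h and 16 h, and DNAJC27 and DNAJB4 are highest in CTR.

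An ER list of 7 genes, which leaves out DNAJC14 and DNAJC16, had 6 genes measured. At 2-fold 1 of these 6 was higher and 0 lower at 4 h (6.56% and 11.6% of all genes) and likewise at 16 h (12% and 13.9%), and it was DNAJB9 both times. DNAJB9, which binds the HSP70 of the ER and is induced by unfolded proteins there, read -2.89 in CTR, -2.32 at 8 h, -2.83 at 12 h and -2.92 at 24 h. Levels on slide 2 were -2.09 (30 min), -1.92 (2 h), -1.70 (4 h) and -1.63 (16 h). All 4 slide 2 arrays lay above all 4 slide 1 arrays, with 2.28-fold at 4 h and 2.39-fold at 16 h above CTR. DNAJB11, an ER lumen co-chaperone with 2 probes, was higher at 8 h by both, by 0.65 and 0.79, and lower at 16 h by both, with changes of -0.65 and -1.65 (log2). HSPA5, their HSP70 partner in the ER, changed by 1.97 (log2) at 8 h, by 1.73 at 30 min and by -1.23 at 24 h. DNAJC10, a disulfide reductase of the ER, was below CTR at every time point by its brightest probe, with changes of -0.73 to -0.26, where 30 min is a bound. Neighbours of this probe deviated by 0.25 in CTR and -0.50 at 8 h, and the part of this in the change was not tested. A_73_P274691 changed by -0.87 at 2 h and -1.32 at 4 h. A_73_116468 was below background in CTR, with a bound of 0.04 at 8 h. DNAJC3, an ER co-chaperone, stayed between -0.32 and 0.37 of CTR, and the ER membrane protein DNAJB12 between -0.04 and 0.39. DNAJB14, of the ER membrane too, was detected on 4 arrays, at -3.75 in CTR and lower at 2 h, 4 h and 12 h, with changes of -0.90 to -0.20.

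DNAJC14, an ER membrane protein, stood apart at 16 h only. Its brightest probe read -2.55 in CTR and between -2.45 and -1.91 on the other arrays except 16 h, where it was below background (-4.60) and at least 2.99-fold lower. Its neighbours were dimmer on the 16 h array (median deviation -0.72), and a second probe, A_73_P046331, changed by only -0.05 there. DNAJC16, an ER protein with a further probe in the dark region, ranged from -0.75 at 12 h to 0.70 at 30 min.

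Among the mitochondrial members, DNAJC15, a J-protein of the inner membrane import motor, read 1.17 in CTR and from 1.06 to 1.59 after heat stress. DNAJC19, its relative at the same motor, stayed between -0.74 and 0.14 of CTR, with the lowest value at 16 h, and DNAJC11, of the membrane contact complex, between -0.14 and 0.33. Of the 4 mitochondrial genes measured, 0 passed 2-fold at any time point, where 19.8% of all genes were higher and 20.9% lower at least once. DNAJC7, which moves clients between HSP70 and HSP90, had 3 probes detected in CTR, all of them higher at 4 h, 8 h, 12 h and 16 h, with changes of 0.004 to 0.97. The vesicle protein DNAJC5 and DNAJC25 were detected only at 2 h and 4 h, close to the limit.

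HSP70, the partner of the J-proteins, was read from a list of 15 genes. At 8 h 4 of 10 tested were at least 3-fold higher and 0 lower (0.577% and 0.0737% of all genes), and at 30 min the counts were the same (8.18% and 2.89%). HSPA6 was 1 of the 4 at both times. It was below background in CTR, so it was tested only where it was detected and could be called only as higher. Its changes of 3.93 (8 h) and 2.94 (30 min) are bounds, and it also counts among the partner genes below. At the other time points the counts higher and lower were 1 and 1 of 10 (2 h), 1 and 2 of 9 (4 h), 1 and 0 of 10 (12 h), 0 and 1 of 9 (16 h) and 0 and 1 of 9 (24 h). HSPA1A, the heat-inducible HSP70, was 4.64 (log2) above CTR at 8 h and 3.61 at 30 min, the 2 time points at which DNAJB1 was highest. At 2 h and 12 h HSPA1A was still 3.03 and 3.24 above CTR, while DNAJB1 was 0.30 and 0.18 above it. HSPA8, the constitutive HSP70, changed by 0.91 at 8 h and by -3.16 at 24 h. Over all 42 partner genes (HSP70, nucleotide exchange, HSP90 and client transfer, J-proteins of other names, transcription factors), 5 of 30 were 3-fold higher at 8 h and 0 lower, against 0.577% and 0.0737% of all genes. At 30 min 4 of 30 were higher and 0 lower (8.18% and 2.89%), and at 12 h 1 of 32 and 0 (0.289% and 0.134%). At 2 h 1 of 33 was higher and 1 lower (5.92% and 6.05%), and at 4 h 1 of 32 was higher and 2 lower (2.46% and 5.4%). At 16 h 0 of 29 were higher and 2 lower (4.97% and 4.92%), and at 24 h 0 and 1 of 29 (0.117% and 0.378%). The median change of the partners at 8 h was 0.54. BAG3, a nucleotide exchange factor that heat shock induces, was 2.71 above CTR at 8 h.

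Comparing within a slide removes the slide from the difference. On slide 1, against 24 h in place of CTR, 2 of 23 members were at least 3-fold higher at 8 h, DNAJB1 (5.07-fold) and DNAJC21 (5.45-fold), and 0 lower, where 0.666% of all genes were higher and 0.371% lower. DNAJA1 followed with 2.64-fold, and 3 members were 2-fold higher and 0 lower (3.12% and 2.73%). At 12 h against 24 h no member reached 3-fold (0.259% and 0.191% of all genes), and 1 was 2-fold higher and 0 lower (1.38% and 0.732%). On slide 2, against 16 h, 1 of 21 members was at least 3-fold higher at 30 min and 0 lower (8.04% and 2.41% of all genes), namely DNAJC14, whose 16 h value is the dim one described above. DNAJA1 was 1.58 (log2) above 16 h at 30 min by its brightest probe, just under 3-fold. Its other probes differed less, apart from A_73_P204487, which was below background at 16 h. At 30 min, 2 h and 16 h A_73_P431004 read -1.46, -1.17 and -1.24. A_73_P057009 read -0.68, -1.08 and -1.28, and A_73_P049093 read -1.98, -1.81 and -2.12. At 2 h 2 of 29 members were higher (DNAJA1, by its brightest probe, and DNAJC14) and 1 lower (DNAJC12), with 5.29% and 4.69% of all genes. At 4 h 2 were higher (DNAJC12 and DNAJC14) and 0 lower (1.37% and 3.75%). At 2-fold the counts were 5 higher and 0 lower at 30 min (15.9% and 8.42%), 6 and 2 at 2 h (10.9% and 10.1%), and 4 and 0 at 4 h (4.73% and 8.48%). For the 6 higher at 2 h, neighbours on the 16 h array deviated by -0.95 (DNAJA2), -0.72 (DNAJC14), -0.61 (DNAJC16), -0.41 (DNAJC21), -0.19 (DNAJA1) and 0.06 (DNAJB11). The part of this in the counts was not tested.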

How the data were processed

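RNA from 8 conditions, 1 array each, was hybridised in 1 colour (Cy3) to bovine 4x44K arrays. Slides were read on a GenePix-4000B scanner. The authors deposited the processed intensity of each spot from Feature Extraction 9.5.3.1, already corrected for background and spatial trend and not scaled between arrays. A table of log2 values was deposited too, made in GeneSpring GX with normalization to the 75th percentile, and every probe in it had a median of 0 over the arrays. The array medians of these log2 values were 0.44 in CTR, 0.33, -0.34 and 0.56 at 8 h, 12 h and 24 h on slide 1, and -0.48, -0.99, -1.04 and 0.46 at 30 min, 2 h, 4 h and 16 h on slide 2.

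Here log2 intensities minus the 75th percentile over the 8049 probes well above background on 7 arrays outside the dark region were used. The median change of these probes was between -0.16 and 0.03. The 30 min scanner intensities disagreed with the deposited log2 values (median difference in change -1.28, against 0.0008 to 0.0034 at other times), so 30 min levels came from the latter, and a probe counted as detected there above the highest limit of the other arrays (-3.35). Outlier-marked spots were left out. A gene was read from its brightest probe. Probes well above background made up 23.3% (24 h) to 40.2% (2 h) of spots, and detection limits ran from -5.55 (4 h) to -3.35 (24 h). The SD between repeated spots came from 14 to 24 probes per array. For 30 min the SD of CTR stood in. A local deviation is the median, over probes within 10 spots that were bright on some array, of the difference from their median on the other arrays.

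Genes were described singly if they passed 2-fold at any time point or had a probe in the dark region, and others were grouped. DNAJA1, DNAJC8 and further members outside this rule are given with values too, and these were chosen after their values were seen. Of the 43 gene names, 42 matched a symbol in the RefSeq table of buffalo (NDDB_SH_1). The members and lists were chosen with earlier results of these data known. Alternatives were the percentile over all probes, quantile normalization, normexp with an offset of 50 (limma 3.58.1, R 4.3.3), no filter, only bright probes, the mean of probes, 2-fold, the dark region kept, the scanner values at 30 min, the deposited log2 values, outlier spots kept, other probes and within-slide differences. The comparison with 24 h was chosen after seeing the data. Tables were computed in Python 3.11.15 with pandas 2.3.3. No column of per-sample values was left unused (0).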

Additional observations from a re-analysis of the deposited data

Results flagged for a closer look

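The DNAJ probes left out for their place in the region dark on the CTR array were read separately, and 8 of the 9 were below background in CTR and above it on at least 1 other array. The region was defined by being dark in CTR, and the share over all 3371 spots there is not given. This count is therefore not a result about DNAJ genes. The highest levels (log2) were 0.68 for DNAJB2 at 8 h, 0.62 for DNAJC12 at 4 h, -2.95 for DNAJA2 at 12 h, -3.23 for DNAJC4 at 24 h, -3.41 for DNAJC9 at 8 h, -3.57 for DNAJC18 at 16 h, -3.65 for DNAJC13 at 12 h and -3.99 for DNAJC16 at 12 h. Probes around them deviated in CTR by -3.06 (DNAJB2), -0.34 (DNAJC12), -0.33 (DNAJA2), -1.08 (DNAJC4), -0.70 (DNAJC9), -1.57 (DNAJC18), -1.83 (DNAJC13) and -1.01 (DNAJC16). The part of the dark region in these differences was not tested. DNAJC13 is an endosome protein and DNAJC9 a histone chaperone, and each has only the probe given here.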

How the results depend on the processing

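No paired analysis was possible because each condition has 1 array and all share the same replicate number. Keeping outlier-marked spots changed no count of DNAJ genes and no median. Quantile normalization left 1 DNAJ gene 3-fold lower at 16 h and gave 3 higher at 8 h, with DNAJA4 added. With normexp 1 was lower at 2 h and 0 at 16 h. With the percentile over all probes, which shifts the median of bright probes to between -0.35 and -0.06, 1 DNAJ gene was lower at 30 min, 2 partner genes were higher at 30 min and 2 lower at 12 h. The deposited log2 values gave 1 lower at 30 min. Requiring both arrays above background gave 0 higher at 4 h and 0 lower at 16 h, and this removes DNAJC12 and the bounds by construction. The mean over detected probes gave 0 higher at 30 min and 1 at 8 h, since the second probe of DNAJB1 or DNAJC21 changed less. Keeping the dark region gave 4 higher at 8 h, 2 each at 30 min, 4 h and 16 h, and 1 each at 2 h, 12 h and 24 h. With a 2-fold cutoff, the DNAJ counts marked as moved were 1 lower at 30 min, 1 higher at 2 h, 3 higher and 2 lower at 4 h, 4 higher and 1 lower at 8 h, 2 higher at 12 h and 1 higher at 16 h. The partner counts marked as moved were 4 higher and 3 lower at 2 h, 4 higher at 4 h, 8 higher at 8 h, 2 higher and 2 lower at 12 h, 4 lower at 16 h and 5 lower at 24 h.

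Without a filter, over all DNAJ genes with a usable probe, the counts marked as moved were 2 higher and 1 lower at 30 min, 1 and 4 at 2 h, 2 and 4 at 4 h, 1 lower at 8 h, 2 higher at 12 h, 1 higher and 4 lower at 16 h and 1 higher at 24 h. The count higher at 8 h is not listed because it was not marked as moved. DNAJB1 (1.86) and DNAJC21 (2.68, log2) stayed past 3-fold at 8 h, since both were detected there and in CTR. Without the filter the family median minus that of all genes was 0.49 (30 min), 0.96 (2 h), 1.42 (4 h), 0 (8 h), 0.46 (12 h) and -0.56 (24 h), and the cause was not tested. The 30 min scanner intensities gave 5 higher, 11 lower and a median of -2.40, and the cause was not tested. Single-gene values were compared only with the percentile over all probes, quantile normalization, normexp, the deposited log2 values, other probes and the within-slide references. Under these, no change past 3-fold changed sign. Many single-gene values still moved by more than the spot error: 32 with another probe of the gene (19 did not), 27 against 16 h within slide 2 (3 did not), 14 against 24 h within slide 1 (8 did not) and 9 with normexp (57 did not). Against 16 h the DNAJC27 values of 2 h and 4 h became bounds of 0. Among all genes called at 3-fold, the share that was higher moved with the percentile over all probes from 73.9% to 61.5% at 30 min, from 49.5% to 38.6% at 2 h and from 68.4% to 18.2% at 12 h, and with quantile normalization from 31.3% to 41.7% at 4 h and from 68.4% to 49.1% at 12 h. Signal over background limits the rest: 15 of the 29 members were detected on all 8 arrays.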
